A study of Rattus norvegicus with 28 samples.

Results

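The genes of the CREB axis described here were Creb1, Crem, Atf1, Crtc1, Crtc2 and Crebbp, 6 of the 17455 gene symbols in the expression table. They were taken by symbol. Where a symbol had several transcripts, the transcript with the highest mean level over all libraries stood for the gene, and for Crem all 8 transcripts are listed below. The cells were INS-1, an insulin-secreting line from a rat insulinoma, and their RNA was profiled in bulk. Libraries came from WT cells and from cells with the serine-to-alanine knock-in S983A of the Mediator subunit Med14, and the knock-in lines were grown from single sorted cells after CRISPR editing. More than 1 such line was made and the labels do not name the one sequenced, so the mutation and the clone cannot be told apart in any difference between genotypes given here. For each genotype there was an untreated group (CON), 3 groups given exendin-4 (Ex-4, 10 nM, an agonist of the GLP-1 receptor) for 1, 8 or 16 h, and 3 groups given forskolin (FSK, 10 µM, an activator of adenylyl cyclase) for 1, 8 or 16 h. The cells were moved to medium without serum before treatment. Each of the 14 groups had 2 libraries, 28 in all.

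Cyclic AMP activates protein kinase A, which phosphorylates CREB1 and its relatives CREM and ATF1 on a serine in their kinase-inducible domain. The phosphorylated factors, bound to the cAMP response element (CRE), recruit the acetyltransferase CBP, the product of Crebbp. The CRTC coactivators enter the nucleus when salt-inducible kinases (SIKs) no longer phosphorylate them. In beta cells this route carries much of the transcriptional response to GLP-1. Crem is also a target of the route, since an internal promoter with CREs gives rise to short products called ICER, which bind DNA without an activation domain and repress CRE-driven genes. RNA levels say nothing of phosphorylation or of the location of these proteins, which were not measured in these libraries.

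The files place 8 Crem transcripts on rn6 chromosome 17, and their start sites fall at 3 positions. NM_001271101 and NM_001110860 start at 57021704. NM_017334, NM_001271245 and NM_001271102 start at 57074525, and NM_001271248, NM_001271246 and NM_001271247 start at 57075218. All but NM_001271248, which ends at 57090883, end at 57090888. RefSeq gives 3 Crem promoter windows on GRCr8, each from 250 bases before to 50 after a start site. The middle and downstream start sites lie 693 bases apart on GRCr8, and the same spacing of 693 bases separates the downstream positions in the rn6 files. The windows are shown because the start sites differ in the letters of the CRE. Capitals mark the full CRE, TGACGTCA, or the shorter TGACG on either strand where it lies outside a full CRE. They cover chr17:58933816-58934115, chr17:58984547-58984846 and chr17:58985240-58985539, all on the plus strand.
Crem window 1: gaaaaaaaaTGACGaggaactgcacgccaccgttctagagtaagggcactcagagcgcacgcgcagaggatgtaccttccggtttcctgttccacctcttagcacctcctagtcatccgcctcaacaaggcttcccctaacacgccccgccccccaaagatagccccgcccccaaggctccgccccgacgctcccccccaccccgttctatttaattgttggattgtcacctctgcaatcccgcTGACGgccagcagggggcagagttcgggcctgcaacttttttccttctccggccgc
Crem window 2: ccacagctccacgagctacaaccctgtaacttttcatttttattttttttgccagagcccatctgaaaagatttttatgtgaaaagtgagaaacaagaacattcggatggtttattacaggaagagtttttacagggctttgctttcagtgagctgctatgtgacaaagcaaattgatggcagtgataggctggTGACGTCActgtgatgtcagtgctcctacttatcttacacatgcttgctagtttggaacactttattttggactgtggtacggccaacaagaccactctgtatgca
Crem window 3: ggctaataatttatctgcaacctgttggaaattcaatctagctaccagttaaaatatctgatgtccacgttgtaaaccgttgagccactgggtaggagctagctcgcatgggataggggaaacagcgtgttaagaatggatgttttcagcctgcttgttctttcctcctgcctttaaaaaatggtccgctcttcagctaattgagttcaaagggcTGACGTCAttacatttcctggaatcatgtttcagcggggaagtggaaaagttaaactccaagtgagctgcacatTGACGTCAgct
The upstream window held 2 short sites and no full CRE. The middle window held 1 full CRE, whose first base lay 56 bases before the start site. The downstream window held 2 full CREs, 35 bases before and 39 bases after the start site. Of 33469 rat windows of 300 bases, 1.83% held a full CRE and 21.2% held at least the short site, full CREs included. Windows were given for 5 of the 6 genes, 8 in all, and the other 5 windows, of Creb1, Crtc1, Crtc2 and Crebbp, held no full CRE. Creb1 had 3 short sites in its upstream window and Crtc2 had 1. A match is a run of letters and does not show that a factor binds there.

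The libraries held 38542741 to 51811415 fragments on the transcripts kept and the ERCC spike-in RNA, and 83715750 in 1 library, Med14 S983A at 8 h of FSK, replicate 2. Med14 itself was at 17.2 to 25.9 TPM (reads scaled by transcript length and library total) in WT and at 19.6 to 30.0 TPM in Med14 S983A, and a change of 1 residue cannot be checked by the amount of transcript. Of 9 beta cell markers, 7 were in the table, with Ins1 at 33716 to 67834 TPM and Glp1r at 61.0 to 104 TPM. The other beta cell markers differed between the genotypes to unlike degrees. Pdx1 was at 291 and 292 TPM in WT CON and at 324 and 342 TPM in Med14 S983A CON. Nkx6-1 was at 51 and 53 TPM in WT CON and at 33 and 37 TPM in the mutant. Ins2, Slc2a2 and Iapp differed more widely. Ins2, a second insulin gene, was at 2885 and 2991 TPM in WT CON and at 32620 and 37516 TPM in Med14 S983A CON. Slc2a2, the glucose transporter gene, was at 500 and 534 TPM in WT CON against 61.7 and 63.6 TPM in the mutant, and Iapp, which encodes amylin, at 6973 and 7007 TPM against 3213 and 3328 TPM. Over all libraries Ins2 ran from 1080 to 37516 TPM, Slc2a2 from 23.8 to 591 TPM and Iapp from 2729 to 14797 TPM. Of 16 markers of other islet, acinar, duct, endothelial, fibroblast and leukocyte cells, 12 stayed under 1 TPM in every library, with Prss1 listed at 0 throughout. The others were Gcg, Ctrb1, Sox9 and Cd68. The acinar gene Ctrb1 was at 4.59 to 14.1 TPM in WT and at 0.419 to 1.76 TPM in Med14 S983A. Gcg, which encodes proglucagon, was at 165 and 169 TPM in WT CON, 6.09 and 6.56 TPM in Med14 S983A CON and up to 1345 TPM in WT at 8 h of FSK. Summed without Gcg, these markers reached 1.65 to 19.1 TPM. In WT, Gcg was at 178 to 184 TPM at 1 h of either agent, near its CON level at the time when Crem was highest, and at 758 to 1345 TPM at 8 and 16 h. In Med14 S983A it was at 6.19 to 6.98 TPM at 1 h and at 38.5 to 113 TPM later. What part these marker differences had in the genotype differences given below was not tested. In bulk RNA a smaller number of cells of a kind and less RNA per cell cannot be told apart.

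Crem was the most variable of the genes. It was at 11.7 and 10.6 TPM in the WT CON libraries. With Ex-4 it was at 172 and 186 TPM after 1 h, 61.6 and 64.0 TPM after 8 h and 20.2 and 19.3 TPM after 16 h. With FSK it was at 290 and 276 TPM after 1 h, 171 and 172 TPM after 8 h and 86.4 and 80.4 TPM after 16 h. In WT every treated library was thus above both CON libraries, and the level was highest at 1 h with either agent.

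In Med14 S983A, Crem was at 5.48 and 3.97 TPM in CON, below both WT CON libraries. Ex-4 brought it to 232 and 228 TPM at 1 h, to 34.1 and 36.6 TPM at 8 h and to 38.8 and 35.9 TPM at 16 h. With FSK it reached 410 and 480 TPM at 1 h, 209 and 208 TPM at 8 h and 95.0 and 97.9 TPM at 16 h. The mutant cells therefore started lower than WT and were higher than WT in 5 of the 6 treated pairs of groups, the exception being 8 h of Ex-4. The ratio of Med14 S983A to WT mean TPM was 0.423 at CON, 1.28, 0.563 and 1.89 at 1, 8 and 16 h of Ex-4, and 1.57, 1.21 and 1.16 at 1, 8 and 16 h of FSK. Replicates of the genotypes did not overlap at any of these points. These ratios between treated groups are descriptions.

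**Figure D1:**
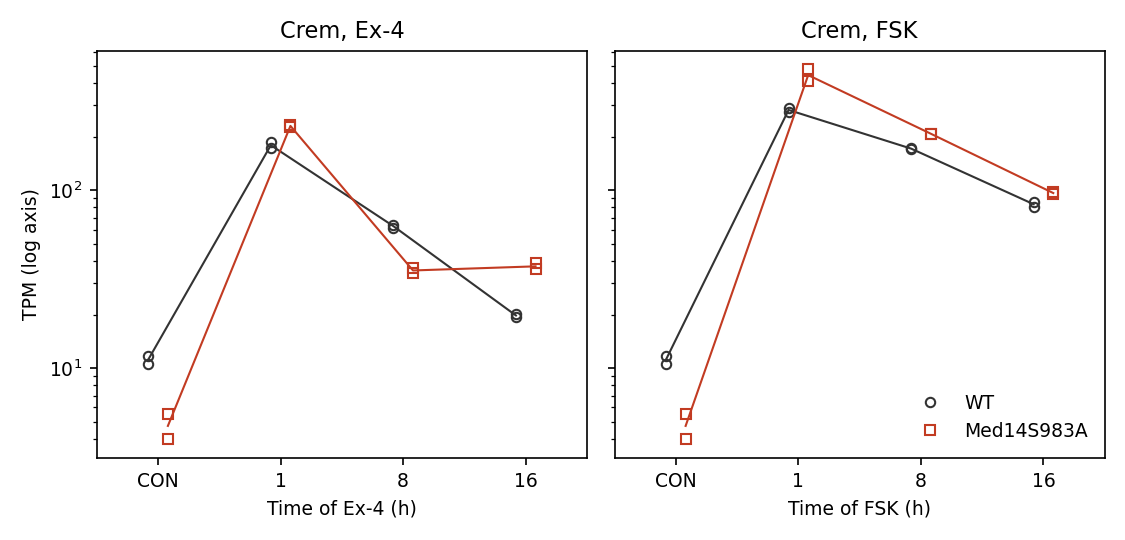
Crem level in TPM, on a log axis, in each library of WT (circles) and Med14 S983A (squares) at CON and at 1, 8 and 16 h of Ex-4 or FSK, with times drawn as equal steps and lines joining the means of 2 libraries. The mutant cells lie below WT at CON and at 8 h of Ex-4, and above WT at the other 5 points.

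Ranked by mean, the 14 groups ran from Med14 S983A at 1 h of FSK, with 445 ± 49.5 TPM (SD, n = 2), to Med14 S983A CON, with 4.72 ± 1.07 TPM (SD, n = 2), a 94.1-fold span. Of 13 pairs of neighbours in that order, 1 overlapped, namely Med14 S983A at 16 h and at 8 h of Ex-4. The gene rested on 370 to 42446 fragments per library.

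The first comparison asked which of the genes responded to the agents. The 6 genes and 12 treatments gave 72 differences from CON of the same genotype, of which limma called 16 (adjusted p under 0.05 and a fold above 1.5), 12 higher and 4 lower. Over all 10275 genes tested, 18.4% of differences were called in these contrasts, 5.62% higher and 12.8% lower. The 12 that rose were Crem in every treatment. On the log2(TPM + 1) scale, which understates the change of a gene at few TPM, Crem rose in WT by 3.89 (SE 0.08, adjusted p 3.5e-22) at 1 h of Ex-4, by 2.39 at 8 h and by 0.77 (SE 0.08, adjusted p 1.1e-08) at 16 h. With FSK it rose in WT by 4.55 at 1 h, 3.83 at 8 h and 2.80 at 16 h. In Med14 S983A the rises were 5.35, 2.68 and 2.75 at 1, 8 and 16 h of Ex-4 and 6.29, 5.20 and 4.10 at 1, 8 and 16 h of FSK. As plain ratios of mean TPM to CON, the rise at 1 h was 16.1-fold with Ex-4 and 25.4-fold with FSK in WT, and 48.7-fold and 94.1-fold in Med14 S983A. Treatments of a genotype share its CON libraries, so these values are not independent of each other. All 12 calls stayed under every alternative scaling, filter and tool, and without each library in turn.

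The next comparison asked whether the genotypes differed before treatment. At CON, limma called 1 of the 6 genes, against 19.4% of all genes (11.1% lower). Crem, as NM_001271102, was lower in Med14 S983A by a log2 difference of −1.10 (SE 0.08, adjusted p 9.8e-12). That SE pools the spread of all 14 groups. For the 2 transcripts from the upstream start the difference was −0.65 and −0.71, both called. For the 6 from the downstream starts it was −1.07 to −1.12. Crem spread most between the 2 libraries of Med14 S983A CON, with an SD of 22.6% of the mean, against as little as 0.24% elsewhere. These CON libraries also enter every Crem rise in the mutant and every Crem interaction. Creb1, the founding member of the family, was at 6.04 and 6.08 TPM in WT CON and at 4.35 and 3.77 TPM in the mutant. Its libraries did not overlap and the difference was −0.48 (SE 0.13, limma adjusted p 0.0029), below the 1.5-fold minimum. The differences of the other genes were 0.07 for Atf1, −0.13 for Crtc1, 0.01 for Crtc2 and −0.14 for Crebbp, none of which passed. The signs for Crtc1 and Crebbp were positive with ERCC scaling, and the sign for Crtc2 turned without replicate 2 of either CON group.

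The response of Crem was compared between the genotypes by the interaction of treatment and genotype. Over 6 treatments and 6 genes limma called 5 of 36 interactions, all of Crem and all higher in Med14 S983A, against 7.2% of all interactions tested (4.48% higher). The extra log2 change in the mutant was 1.46 (SE 0.12, adjusted p 5.1e-09) at 1 h of Ex-4, 1.98 (SE 0.12, adjusted p 1.8e-12) at 16 h of Ex-4, 1.74 at 1 h of FSK, 1.38 at 8 h of FSK and 1.31 at 16 h of FSK. At 8 h of Ex-4 it was 0.29 (SE 0.12, limma adjusted p 0.084) and was not called. The interactions contain the lower CON level of the mutant, since each is a difference of changes from CON. The interactions of the other 5 genes ran from −0.10 to 0.53 and none was called. The Creb1 interaction at 16 h of FSK, 0.53, was 0.625 (limma adjusted p 0.028) and called with a pseudocount of 0.1 TPM, and it was also called without WT 16 h FSK replicate 2 (0.63) or Med14 S983A CON replicate 1 (0.61). That at 8 h of FSK was called without Med14 S983A 8 h FSK replicate 2 (0.60).

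Ex-4 and FSK were then set side by side at the same time. Crem was lower with Ex-4 than with FSK in all 6 pairs (limma), the 6 calls among 36 differences of the 6 genes, against 17.4% of all differences (4.54% lower). In WT the log2 difference after 1 h was −0.66 (SE 0.08, adjusted p 1.5e-06), followed by −1.43 after 8 h and −2.02 after 16 h. In Med14 S983A the differences were −0.94, −2.52 and −1.35 after 1, 8 and 16 h. The agents were used at 1 dose each, so the comparison is between these doses. The other 5 genes had differences of −0.01 to 0.54. Of these, Creb1 at 8 h in WT was at 0.38, and at 0.60 and called with edgeR and with DESeq2 on ERCC size factors. Crtc1 at 16 h in WT was at 0.54, and at 0.59, beyond 1.5-fold, without WT 16 h FSK replicate 1.

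The last comparison followed the course after 1 h. Of 48 later-against-earlier differences limma called 7, all of Crem and all lower, against 18.7% of all differences (10.2% lower). In WT with Ex-4 the log2 difference of Crem was −1.50 from 1 to 8 h and −1.62 from 8 to 16 h. In WT with FSK it was −0.72 and then −1.03. The WT fall from 1 to 8 h of FSK coincided with a median of −0.20 over all genes, which was −0.24 with ERCC scaling. The Crem fall was −0.46 with libraries centred on their medians. It was −0.53 with edgeR and −0.51 with DESeq2 on their own size factors, and all of these were under 1.5-fold. The fall stayed called with ERCC scaling and with edgeR and DESeq2 on ERCC size factors. In Med14 S983A the difference from 1 to 8 h was −2.67 with Ex-4 and −1.09 with FSK, and from 8 to 16 h of FSK it was −1.10. From 8 to 16 h of Ex-4 the mutant value was 0.07 (SE 0.08, limma adjusted p 0.49), which was not called. After 16 h of Ex-4, Crem stood at 11.02% of its 1 h mean in WT and at 16.2% in Med14 S983A. After 16 h of FSK it stood at 29.5% and 21.7%. Crtc1 in Med14 S983A fell from 8 to 16 h of FSK by a log2 difference of −0.48, under 1.5-fold. With libraries centred on their medians the Crtc1 fall was −0.67 (limma adjusted p 5.5e-08) and called. It was −0.68 and called with edgeR and with DESeq2 on their own size factors. Without Med14 S983A 8 h FSK replicate 2 it was −0.60, beyond 1.5-fold.

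The 8 Crem transcripts share most of their exons, and a read on a shared exon was counted for each of them, so their levels are not independent. Mean levels over the libraries ran from 81.3 TPM for NM_001271101 to 133 TPM for NM_001271102, which stood for the gene. At 1 h of FSK the transcripts from the upstream start rose 18.2-fold (NM_001271101) and 19.9-fold (NM_001110860) in WT, whereas the 6 from the downstream starts rose 24.7-fold to 25.4-fold. In Med14 S983A the same transcripts rose 48.8-fold and 54.3-fold, and the 6 others 92.2-fold to 99.9-fold. At 1 h of Ex-4 the upstream pair rose 11.7-fold and 12.7-fold in WT and the others 15.7-fold to 16.1-fold. With every transcript as a row, limma called 5 of 6 interactions with genotype for each transcript. The largest was 1.45 and 1.52 for the upstream pair and 1.94 to 2.02 for the others. Against CON, 11 of 12 rises were called for NM_001271101, whose lowest was 0.53, and 12 of 12 for each other transcript.

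A simple index was the fragments of NM_001271102, from the middle start, divided by those of NM_001110860, from the upstream start. Reads on shared exons enter both, so a ratio above 1 means that exon sequence particular to NM_001271102 held more fragments than exon sequence particular to NM_001110860. The ratio was 0.811 and 0.830 in WT CON and 0.639 and 0.563 in Med14 S983A CON. At 1 h of Ex-4 it was 1.04 and 1.03 in WT and 1.04 and 1.03 in the mutant. The ratio was thus lower in Med14 S983A than in WT at CON, and higher at 1 h of Ex-4 than at CON in both. NM_001271102 has 3360 bases and NM_001110860 has 4392, so a ratio of 1 marks no equal use of the start sites. Per length, the mean levels were 11.2 TPM for NM_001271102 and 10.4 TPM for NM_001110860 in WT CON, and 4.72 and 5.97 TPM in Med14 S983A CON.

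With FSK the ratio was above 1 in all 12 libraries of both genotypes, 18 of the 28 libraries in all. With Ex-4 it was 1.00 in both libraries of WT at 8 h and 0.925 and 0.943 at 16 h. In Med14 S983A it was 0.954 and 0.962 at 8 h and 0.982 and 0.978 at 16 h. The WT libraries at 16 h of Ex-4 were below the mutant libraries, and at 8 h they were above them, the same order as the TPM of the gene. The ratio of NM_001271247, from the downstream start, to NM_001271102 stayed between 0.930 and 0.976 in every library. No test was run on these ratios, with 2 libraries a group.

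**Figure D2:**
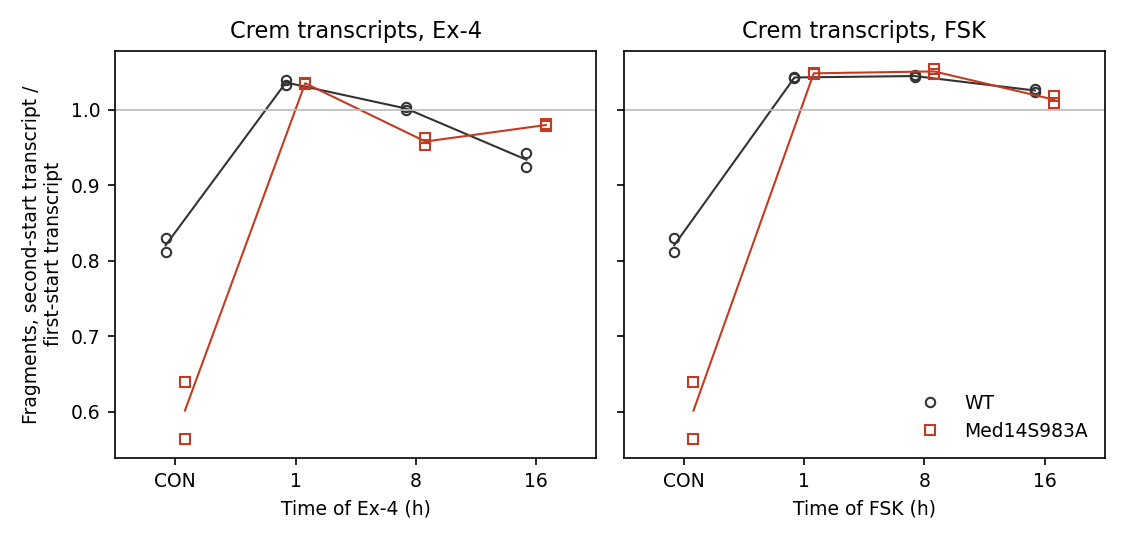
Ratio of fragments of the Crem transcript NM_001271102 (the second start) to NM_001110860 (the first start) in each library of WT (circles) and Med14 S983A (squares), with times as equal steps, lines through the means of 2 libraries and a grey line at 1 for reference, which marks equal fragments and not equal levels per length. The ratio is lowest at CON, 0.563 to 0.830, and above 1 in every FSK library.

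The other genes moved little. Creb1 (NM_134443, rn6 chromosome 9, 71247781 to 71293413) was the lowest, at 2.87 to 6.08 TPM, on 88.5 to 181 fragments per library. Atf1 (NM_001100895, chromosome 7, 141882261 to 141924790), which can pair with CREB1, was the steadiest, at 90.1 to 128 TPM. Crtc2 (NM_001033895, chromosome 2, 189616061 to 189625646) was at 48.8 to 77.2 TPM and Crtc1 (NM_001047115, chromosome 16, 20740826 to 20794039) at 18.6 to 40.8 TPM. Crebbp (NM_133381, chromosome 10, 11595044 to 11721038) was at 9.17 to 17.2 TPM. Per length, then, Atf1 RNA was the most abundant of the factors at CON, above Crem and Creb1, and Crtc2 RNA was above Crtc1 RNA in every library. Between the highest and the lowest group mean the span was 1.34-fold for Atf1, 1.49-fold for Crtc2, 1.68-fold for Crebbp, 1.77-fold for Creb1 and 2.00-fold for Crtc1.

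**Figure D3:**
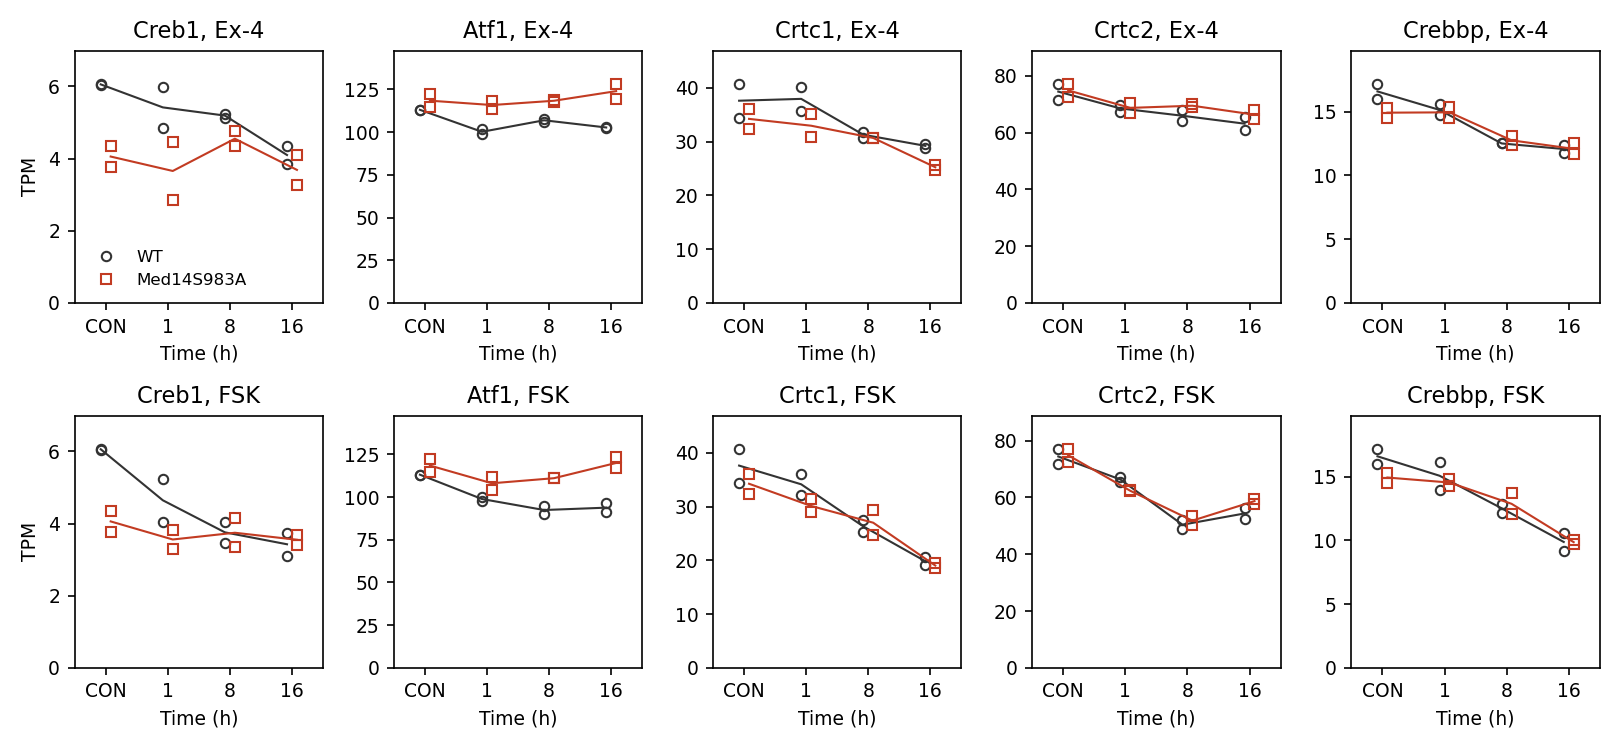
Levels of Creb1, Atf1, Crtc1, Crtc2 and Crebbp in TPM in each library of WT (circles) and Med14 S983A (squares) at CON and after Ex-4 (top) or FSK (bottom), with times as equal steps and lines through the means of 2 libraries. Each vertical axis starts at 0, and Crtc1 and Crebbp are lowest at 16 h of FSK.

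In the main limma fit, the 4 calls that were lower than CON all came at 16 h of FSK. At that time 24.1% of all genes were lower in WT and 21.1% in Med14 S983A. With ERCC scalings some falls at 8 h of FSK were called as well, as given below. Crtc1, a coactivator that is abundant in brain, was at 40.8 and 34.4 TPM in WT CON and at 20.6 and 19.1 TPM after 16 h of FSK. In Med14 S983A it was at 32.4 and 36.1 TPM in CON and at 19.5 and 18.6 TPM at that time. No FSK library of 16 h reached a CON library. Crtc1 fell by 0.89 (SE 0.08, limma adjusted p 5.9e-10) on the log2 scale in WT and by 0.81 (SE 0.08, adjusted p 2.9e-09) in Med14 S983A.

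Crebbp, which encodes the acetyltransferase CBP, was at 16.0 and 17.2 TPM in WT CON and at 9.17 and 10.6 TPM at 16 h of FSK. The log2 change was −0.70 (SE 0.07, limma adjusted p 4.8e-09). In Med14 S983A it was at 14.5 and 15.3 TPM in CON and at 9.68 and 10.0 TPM at 16 h of FSK, with a change of −0.55. That was under 1.5-fold on the log2(TPM + 1) scale, while the plain means of 14.9 and 9.85 TPM give a 1.51-fold fall, and with a pseudocount of 0.1 TPM the change was −0.59 (limma adjusted p 2.8e-07) and called. The difference between the genotypes' changes was not called. Creb1 was at 6.04 and 6.08 TPM in WT CON and at 3.11 and 3.74 TPM at 16 h of FSK, a change of −0.68 (SE 0.13, limma adjusted p 6.5e-05). Without replicate 1 of WT at 16 h of FSK the Creb1 change was −0.57 and under 1.5-fold. The median over all genes was −0.20 in this WT contrast and −0.10 in the mutant one. With ERCC scaling the WT changes were −0.37 for Creb1, −0.52 for Crtc1 and −0.34 for Crebbp, all still lower and all under 1.5-fold. With DESeq2 on ERCC size factors the Creb1 change was −0.41 (DESeq2 adjusted p 0.099), which also missed the threshold on p. At 8 h of FSK the WT Creb1 change was −0.57 and under 1.5-fold. On ERCC size factors that 8 h change was −0.67 with edgeR and −0.67 with DESeq2 (DESeq2 adjusted p 0.0050), called by both.

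For Atf1 and Crtc2 no treatment was called in the main limma fit. Their log2 changes from CON ran from −0.29 to 0.07 and from −0.55 to −0.11, respectively. Crtc2, the coactivator best known in liver and islets, was at 77.2 and 71.6 TPM in WT CON and at 51.9 and 48.8 TPM at 8 h of FSK, where the median over all genes was −0.34. In Med14 S983A it was at 72.5 and 77.1 TPM in CON and at 53.4 and 50.3 TPM at 8 h of FSK. These Crtc2 libraries did not overlap those of CON in either genotype. With ERCC scaling the Crtc2 change at 8 h of FSK in Med14 S983A was −0.61 (limma adjusted p 6.5e-09) and called. It was −0.62 and also called with edgeR and with DESeq2 on ERCC size factors. In WT the Crtc2 change at 8 h of FSK was −0.55. It was −0.61 without WT CON replicate 2 and −0.60 without WT 8 h FSK replicate 1, both beyond 1.5-fold. Atf1 was at 113 TPM in both WT CON libraries and at 122 and 115 TPM in Med14 S983A CON, and under treatment its levels were 90.1 to 108 TPM in WT and 104 to 128 TPM in the mutant. The order of the groups was less clear than for Crem, since neighbouring groups overlapped in 8 of 13 pairs for Atf1, 9 for Crtc2, 10 for Crebbp and 12 each for Creb1 and Crtc1.

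**Figure D4:**
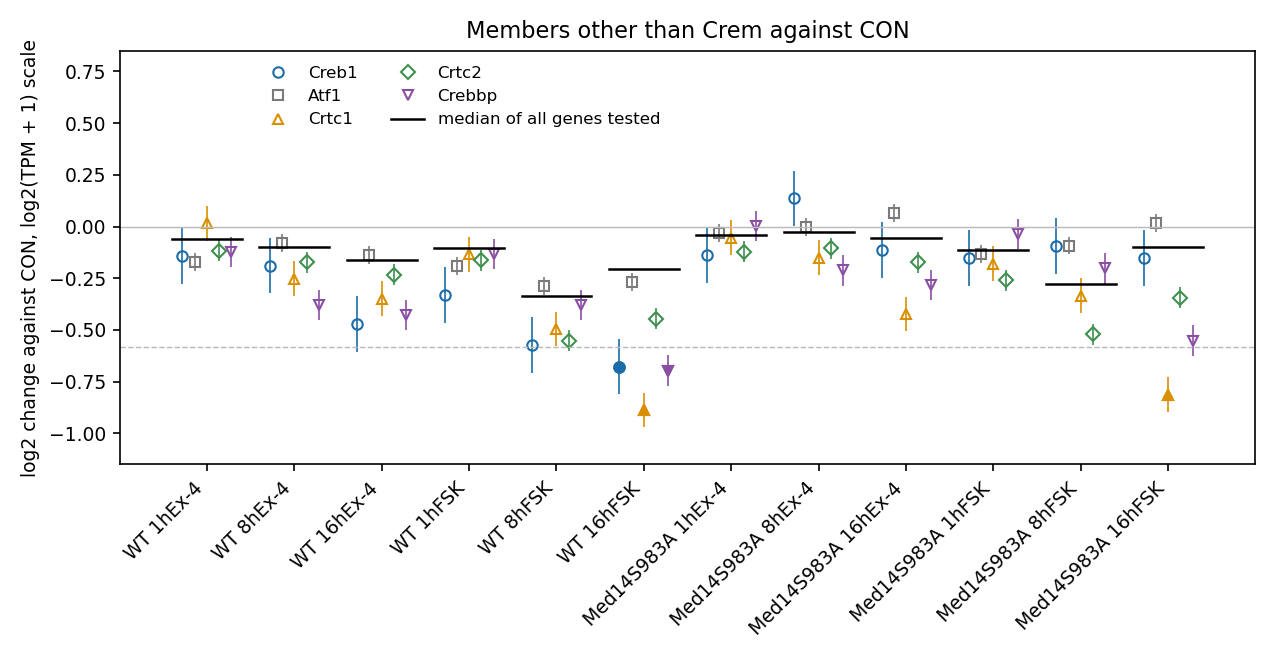
Log2 change from CON of the same genotype, on the log2(TPM + 1) scale, for Creb1, Atf1, Crtc1, Crtc2 and Crebbp in 12 treatments, with standard errors as bars, filled symbols for calls, a black line at the median of all genes tested and a dashed line at a 1.5-fold fall. The 4 filled symbols all lie at 16 h of FSK.

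The relatives and coactivators of the family were read from a list of 17 genes, of which 13 reached a mean of 1 TPM. In WT, 1 was called higher at 1 h of Ex-4 (1.75% of all genes higher), 3 higher at 16 h of Ex-4 (3.53% higher), and 6 higher and 1 lower at 8 h of FSK (8.77% higher, 34.8% lower). The list's median change was −0.05, 0.40 and 0.34 in these contrasts, beside −0.06, −0.16 and −0.34 for all genes. The gene called at 1 h was Atf3, a stress-induced member, at a log2 of 2.09 above CON (SE 0.10, limma adjusted p 4.4e-15). The largest rises at 16 h of Ex-4 were 0.99 for Creb3l1, a membrane-bound factor of the endoplasmic reticulum, and 0.95 for Atf5. At 8 h of FSK they were 1.95 for Atf3 and 1.80 for Atf4, the effector of the integrated stress response, while Crebrf fell by 2.26. At CON, 3 were higher (8.29% of all genes) and 1 lower (11.1%) in Med14 S983A, with Creb3l1 at 1.97, Atf5 at 1.08 and Crebl2 at −1.21. The count higher at 16 h of Ex-4 was 6 or 7 of 13 after other scalings.

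Kinases, kinase inhibitors and phosphatases that act on CREB or the CRTCs made a list of 29 genes, 28 of which were tested. In WT, 1 was higher at 1 h of Ex-4 (1.75% of all genes higher). That was the CRTC kinase gene Sik1, which rose by 4.57 on the log2 scale (SE 0.10, limma adjusted p 6.6e-22). After 16 h of Ex-4, 2 were higher (Camk4 0.98, Sik1 0.70) and 2 lower (Rps6ka5 −1.06, Prkacb −0.62), beside 3.53% of all genes higher and 8.28% lower. The change of Prkacb, which encodes a catalytic subunit of protein kinase A, was −0.29 to −0.47 and under 1.5-fold with the other scalings. At 8 h of FSK, 6 were higher and 9 lower, beside 8.77% and 34.8% of all genes, with Sik1 at 4.08, Camk4 at 3.20, Prkacb at −2.17 and Prkar2b, a regulatory subunit gene, at −1.02. That balance turned to 8 higher and 2 lower after median-centring, and to 8 and 4 with edgeR on its own size factors. It stayed at 6 and 9 with ERCC scaling and with edgeR on ERCC size factors. The list's median was −0.03, −0.18 and −0.18 in these contrasts. At CON, 8 of 28 were lower in Med14 S983A and 0 higher, against 11.1% of all genes lower. The list's median was −0.37, beside −0.07 for all genes. The largest falls were −1.18 for Pkib, an inhibitor of protein kinase A, and −1.13 for Ppp3cb, a calcineurin subunit gene. With ERCC scaling 4 were lower.

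Known CREB targets other than Crem made a list of 23 genes, of which 20 were tested and Sik1 is shared with the kinase list. The study had already named Fos, Junb, Sik1, Dusp1, Rgs2 and Pde10a as induced at 1 h of Ex-4. The list was chosen with that known, so its counts are descriptions and not independent support. At 1 h, 16 of 20 were higher in WT with Ex-4 (1.75% of all genes) and 16 with FSK (2.53%), with a list median of 2.82 and 3.79. In Med14 S983A, 17 were higher at 1 h of Ex-4 (2.03% of all genes) and 16 at 1 h of FSK (3.19%), with medians of 2.77 and 3.95. The largest WT rises with Ex-4 were 4.95 (SE 0.08, limma adjusted p 6.5e-24) for the orphan receptor gene Nr4a1 and 4.77 for Fosb, an AP-1 gene. At 8 h of FSK in WT, 18 were higher (8.77% of all genes), Fosb by 4.26 and Sik1 by 4.08. By 16 h of Ex-4 in WT, 4 were higher (3.53% of all genes) and 1 lower (8.28%), with a median of 0.26. These included Ppargc1a at 1.66 and Pde10a at 0.83, with the clock gene Per2 at −0.67. With other scalings 4 to 11 were higher there, and Per2 was under 1.5-fold with 3 of 4.

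At CON, 8 of the 20 targets were lower (11.1% of all genes) and 1 higher (8.29%) in Med14 S983A, with a list median of −0.49 beside −0.07 for all genes. The study had named Pde10a and Pde4d, both on the list, as repressed in the mutant lines, so this count is also a description. Nr4a1 was lower by −1.24 and Nfil3, a bZIP repressor gene, by −1.11, whereas Per2 was higher by 0.89. The number lower was 4 to 8 with other scalings. The interaction at 16 h of Ex-4 was higher in the mutant for 11 of the 20, against 5.43% of all genes, with a median of 0.65 beside 0.09. With ERCC scaling 5 were higher.

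Genes with the pattern most like each member were ranked by Pearson's r of log2(TPM + 1) over the 28 libraries, which share cells, time points and treatments, so r is a description. For Crem they were Sik1 (r = 0.98, 1.27 to 201 TPM), LOC689986 (r = 0.98) and Fosl2 (r = 0.97). For Crtc1 they were E2f7 (0.95), Ttyh3 (0.94) and Prex1 (0.94), and for Crebbp Prex1 (0.94), E2f7 (0.93) and Peg3 (0.93), so Prex1 and E2f7 stood in both lists. The r between Crtc1 and Crebbp was 0.90. Crtc2 was most like Cnot3 (0.98), RGD1306746 (0.97) and Trim14 (0.96), Atf1 most like Akr1c19 (0.95), Adgrg1 (0.94) and Zmym4 (0.94), and Creb1 most like Ehmt1 (0.89), Arhgap35 (0.84) and Chm (0.83). The r of Crem with the other members ran from −0.50 for Crtc2 to −0.04 for Crebbp.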

How the data were processed

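Bulk RNA-seq of INS-1 cells was analysed in 28 libraries of 14 groups, taken from the sample titles. Reads were mapped by the authors with STAR 2.5.3a to rn6 plus spike-in sequences, and the authors deposited TPM per transcript from HOMER 4.11.1, counted on exons by strand. The authors deposited QoRTs counts for the 92 ERCC sequences alone, and the study called genes with DESeq2 1.24.0 on ERCC size factors. The table's Length column is a transcript length. The members and gene lists were chosen with earlier results of these data known.

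One transcript per symbol was kept, that with the highest mean TPM (17455 symbols, 1676 transcripts dropped). Log2(TPM + 1) of the 10275 genes whose mean reached 1 TPM was fitted with limma 3.58.1 (trend, R 4.3.3) on 14 group means, with 14 residual degrees of freedom and 33 contrasts. Tests were two-sided and adjusted by Benjamini-Hochberg within a contrast, and calls needed an adjusted p under 0.05 and a fold above 1.5. Fragments were recovered from TPM, length and ERCC counts. Of 137444 values, 100% came out whole within 0.05 reads beyond rounding, at 2 reads per fragment. These were used for edgeR 4.0.16 and DESeq2 1.42.0 as alternatives. The tests were tried on simulated counts with rises put into WT at 1 h of Ex-4 alone. No shift over all genes, as at 8 h of FSK, was simulated, so the trial does not cover the choice of scaling. No source says that replicates were separate cultures, so p-values measure only the spread between these samples. Genes were named if they were members, Crem transcripts, the 2 largest called rises and falls of a list in WT at 1 and 16 h of Ex-4, WT at 8 h of FSK and genotype at CON, or the 3 most alike in pattern. The other alternatives were pseudocount, filters, median-centring, ERCC scaling, only the libraries of a contrast, a replicate block, each library left out, no fold minimum and every transcript as a row.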

Additional observations from a re-analysis of the deposited data

Results flagged for a closer look

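For Crem, 5 interactions of treatment and genotype and 7 differences between times passed the limma test of the difference itself. The change from CON was larger in Med14 S983A than in WT by 1.46 at 1 h of Ex-4, 1.98 at 16 h of Ex-4, 1.74 at 1 h of FSK, 1.38 at 8 h of FSK and 1.31 at 16 h of FSK, on the log2(TPM + 1) scale. Each of these contains the lower CON level of Crem in the mutant (−1.10), and all rest on the same CON libraries. Between the treated groups the ratio of mutant to WT mean TPM was 1.28, 1.89, 1.57, 1.21 and 1.16, in the same order. From 1 to 8 h the Crem change was −1.50 with Ex-4 and −0.72 with FSK in WT, and −2.67 and −1.09 in Med14 S983A. From 8 to 16 h it was −1.62 with Ex-4 and −1.03 with FSK in WT, and −1.10 with FSK in Med14 S983A. Groups of 2 libraries are too small for a search for outlying samples.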

How the results depend on the processing

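Of 198 differences of the 6 genes, 35 were called, and 0 of these changed sign under any alternative. Of the 35, 31 were called under every alternative and 34 without each library in turn. The exceptions were the WT changes of Creb1, Crtc1 and Crebbp at 16 h of FSK and of Crem from 1 to 8 h of FSK, given with their values above. With a pseudocount of 0.1 TPM there were 18 calls against CON and 6 interactions, the added ones being Creb1 in WT at 8 h of FSK (−0.68, limma adjusted p 0.00066) beside the Crebbp and Creb1 values above. Other scalings also added calls, given with their values above. These were Creb1 in WT at 8 h of FSK, against CON and against Ex-4, and Crtc2 in Med14 S983A at 8 h of FSK. Crtc1 in Med14 S983A from 8 to 16 h of FSK was also added. Of the 163 not called, 86 changed sign under at least 1 alternative. Among the values printed these were, with ERCC scaling, edgeR and DESeq2 on ERCC size factors respectively, Crem in Med14 S983A from 8 to 16 h of Ex-4 at −0.0449, −0.0481 and −0.048, Crtc1 between genotypes at CON at 0.0651, 0.0713 and 0.0706, and Crebbp there at 0.0449, 0.0584 and 0.0584. Crtc2 between genotypes at CON ranged from −0.0452 to 0.0622 as CON libraries were left out, the former without WT CON replicate 2. Without the fold minimum, which by construction adds small differences, the calls rose to 46 of 72 against CON (12 higher and 34 lower), 2 of 6 between genotypes, 10 of 36 interactions, 20 of 36 between the agents (14 higher and 6 lower with Ex-4) and 23 of 48 between times (2 higher and 21 lower). The share of all genes called without the fold minimum was not computed. These counts are therefore not a result about the 6 genes. Leaving out each library gave 15 to 18 calls against CON, 1 between genotypes, 5 to 6 interactions, 6 to 7 between the agents and 7 to 8 between times. With the replicate number as a block the calls were 16, 1, 5, 6 and 7, as without it. Replicate deviations had r of −0.28 to 0.28 over 91 pairs of groups, with a median of 0.003 and 17 of them over 0.1. Whether some groups shared a batch cannot be read from these values, and the labels do not say how replicates were numbered. With a mean of at least 5 TPM Creb1 dropped out and 15 calls remained against CON. At 88.5 to 181 fragments, depth limits Creb1 most, with an SE of 0.13 beside 0.04 for Atf1.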

Other observations

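Exon sequence of 46 bases, the length by which NM_001271245 exceeds NM_017334, held 0.5 or 1 fragments in each WT and Med14 S983A CON library. It held 19 and 30 fragments in WT at 1 h of Ex-4 and up to 90.5 in Med14 S983A at 1 h of FSK. The whole of NM_001271245 rose as well. It held 710.5 and 772.5 fragments in WT CON and 370.5 and 266.5 in Med14 S983A CON. At 1 h of Ex-4 in WT it held 11870 and 14809, and 32407 in the Med14 S983A library with 90.5. No test was run. Both Creb1 transcripts, NM_134443 and NM_031017, differed between genotypes at CON by −0.48 (SE 0.13, limma), below 1.5-fold. They share most of their exons and are not independent.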
